A study of Mus musculus with 10 samples.

Results

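The genes described here are 39 mouse genes of the lysosome and of autophagy, taken as a fixed list of symbols: 29 code for lysosomal proteins or for their regulator Tfeb, and 10 for proteins of autophagy. All 39 were found by gene identifier among the 26411 genes of the surgery table and among the 55886 genes of the injection table, and all 39 passed the filter on low values in both. The study profiled mouse trigeminal ganglion, the sensory ganglion of the face, by bulk RNA sequencing, and its title concerns trigeminal neuropathic pain. In the surgery experiment 3 pIONT libraries were set against 3 sham libraries, all taken on day 10; pIONT is the labels' name for the operation. In the injection experiment 2 libraries from ganglia injected with UCN1 (urocortin 1, a peptide of the corticotropin-releasing factor family) were set against 2 libraries from ganglia injected with PBS, all taken 6 hours after the injection. Genotype, strain, age and sex are not given in the labels, and the labels do not say whether a library came from 1 animal or from a pool, so p-values measure the spread between these libraries, which may be technical.

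Lysosomes are acidic organelles in which hydrolases break down proteins, sugars and lipids that arrive by endocytosis or by autophagy. A proton pump in the membrane acidifies them, and membrane glycoproteins line and protect it. In autophagy a cup-shaped membrane grows around cargo, is coated with proteins of the LC3 and GABARAP families, closes and fuses with a lysosome. Sensory neurons and the macrophages of a ganglion both carry out these steps. The transcription factor TFEB and its relatives drive many lysosomal genes through sites built around the letters CACGTG.

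Values are FPKM, which corrects reads for the length of a gene and for sequencing depth, as the authors deposited them, and the tables of the experiments were made with different definitions of length, so levels are compared only within a table. Fold changes are differences on the log2(FPKM + 0.5) scale, with their standard error (SE). A gene is said to have risen or fallen where limma gave a Benjamini-Hochberg adjusted p below 0.05 over all genes tested in its table. In bulk RNA, a change in the number of cells of a type and a change in RNA per cell cannot be told apart.

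Depth recovered from the steps in the low values was 24.2 to 29.7 M (mega) reads in each library of the surgery experiment, and 15.7 to 17.1 M after injection. The fewest reads behind any member in a library belonged to Tfeb, with 418 after surgery or sham and 224 after injection. Markers of sensory neurons, Schwann cells and satellite glia were above 0 in every library. The library sham 1 stood apart in pituitary markers, which summed to 117 to 132 FPKM in pIONT libraries, against 765, 80.7 and 255 FPKM in sham 1, 2 and 3. It also stood apart in oligodendrocyte markers, with 8.40 FPKM against 0.843 to 1.14 FPKM in the other surgery libraries. The library sham 3 had the highest sums of neutrophil markers (181 FPKM, others 13.5 to 72.8) and red blood cell markers (402 FPKM, others 85.0 to 258). The library pIONT 2 had the highest sum of macrophage markers, and also of injured sensory neuron, fibroblast and satellite glia markers. Their values are given with the results.

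The start regions of the members were searched for the CACGTG letters because TFEB is itself a member. RefSeq promoter windows (build GRCm38.p6, from 250 bases before to 50 after the start of the gene) were matched for 34 of the 39 members. A gene with several windows counted once, where any of them matched. The letters CACGTG, which read the same on both strands, stood in 11 of the 34 members (32.4%), against 8.09% of 27025 genes with a window. The longer TCACGTGA, which contains CACGTG and also reads the same on both strands, stood in 5 members (14.7%), against 1.12% of these genes. The 5 stretches with TCACGTGA in capitals, with that of Lamp1, whose window held CACGTG 4 times, are shown 5′ to 3′ on the strand of the gene.
Ctsd, chr7:142387908-142387937, minus strand: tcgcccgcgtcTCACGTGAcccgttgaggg
Ctsa, chr2:164833749-164833778, plus strand: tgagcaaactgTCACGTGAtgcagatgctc
Mcoln1, chr8:3500462-3500491, plus strand: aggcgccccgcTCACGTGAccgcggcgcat
Atp6v0d1, chr8:105566050-105566079, minus strand: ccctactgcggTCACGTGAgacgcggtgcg
Atp6v1a, chr16:44139373-44139402, minus strand: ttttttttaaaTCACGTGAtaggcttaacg
Lamp1, chr8:13159091-13159160, plus strand: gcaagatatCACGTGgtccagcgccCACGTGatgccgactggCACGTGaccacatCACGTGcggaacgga
A match is a run of letters, not a measured binding site. TFEB sites were already known from lysosomal genes, so these shares say nothing about these libraries. The genes compared were not limited to those tested here. Of the 9 members that changed after pIONT and had a window, CACGTG stood in 3 (Ctsd, Ctsl and Gaa) and TCACGTGA in 1 (Ctsd).

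On day 10 after surgery, 9 of the 39 genes rose in pIONT ganglia (23.1%), against 10.5% of the 14672 genes tested. Gaa fell (2.56%), against 12.3% of all genes. In either direction 10 of the 39 changed, against 22.8% of all genes. The 9 were Cd63, Ctsb, Ctsd, Ctsl, Ctsz, Galc, Atp6ap1, Map1lc3b and Gabarap. The median log2 fold change of the 39 was 0.08, against -0.02 over all genes tested, and 24 of the 39 were positive, against 45% of all genes. In 17 genes (43.6%) every pIONT library lay above every sham library, against 18.7% of all genes, and in 4 (10.3%) below, against 24.7%; in either direction 43.4% of all genes did not overlap. Among the 29 lysosomal genes 7 rose and 1 fell, with a median of 0.13, and among the 10 autophagy genes 2 rose and 0 fell, with a median of -0.04.

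**Figure D1:**
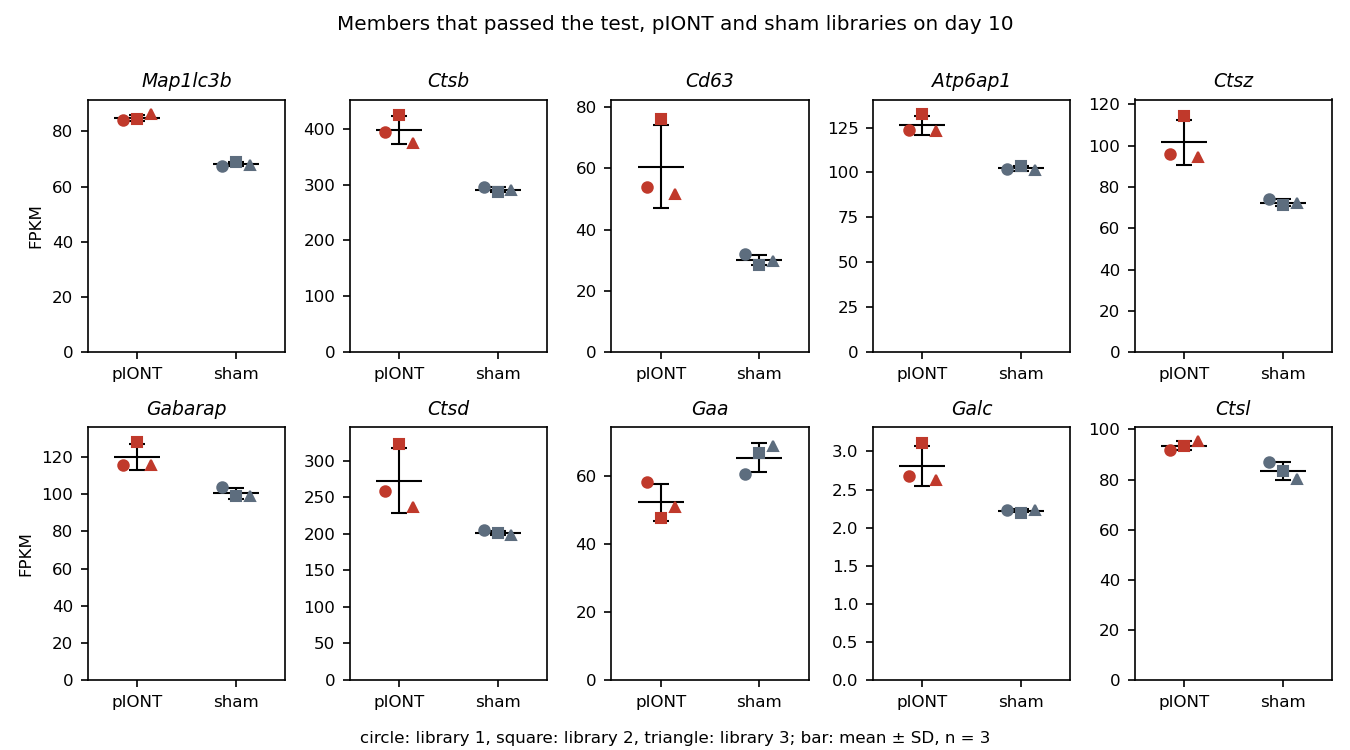
FPKM (vertical axes, from 0) of the 10 members that passed the test, in pIONT (left) and sham (right) libraries on day 10; symbols mark library numbers and bars the mean ± SD of 3 libraries. No panel has overlapping groups, and Gaa alone is lower in pIONT, with 47.6 to 58.3 FPKM in pIONT libraries against 60.7 to 68.8 in sham libraries.

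Of the 6 lysosomal membrane proteins, Cd63 rose, with the largest fold change of all 39 genes. Cd63 is a tetraspanin of late endosomes, lysosomes and exosomes, and its gene lies on chromosome 10 at 128736858-128748691 in the surgery table, whose processing notes name GRCm39. It had 53.8, 76.1 and 51.7 FPKM in pIONT libraries 1 to 3, against 31.9, 28.5 and 29.7 FPKM in sham libraries 1 to 3. All 3 pIONT libraries lay above all sham libraries, and pIONT 2 was the highest. The log2 fold change was 0.98 (SE 0.14, limma adjusted p = 0.0049). Lamp1, the most abundant of the group and a major glycoprotein of the lysosomal membrane, had 199.6, 218 and 192 FPKM in pIONT libraries, against 194, 172 and 179.5 FPKM in sham libraries. The groups of Lamp1 overlapped, and it did not pass (0.16, SE 0.07, limma adjusted p = 0.12). Scarb2, the carrier that brings glucocerebrosidase to the lysosome, was above sham in every pIONT library without passing (0.14, adjusted p = 0.070). The glycoprotein Lamp2, the cholesterol exporter Npc1 and the calcium channel Mcoln1 did not pass either, at 0.11, -0.05 and -0.05.

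Of the 6 proteases, 4 rose and 0 fell. Ctsb, cathepsin B, is a cysteine protease, encoded on chromosome 14 at 63359911-63383372. It had 394.8, 424 and 374 FPKM in pIONT libraries, against 296, 287 and 290.02 FPKM in sham libraries. The sham libraries lay within a narrow band and every pIONT library above it, and the log2 fold change was 0.45 (SE 0.06, limma adjusted p = 0.0031). Ctsz, cathepsin Z, a carboxypeptidase (chromosome 2, 174269286-174280832), had 95.8, 114 and 94.5 FPKM in pIONT libraries, against 74.2, 71.0 and 72.0 FPKM in sham libraries. The groups did not overlap, and the log2 fold change was 0.48 (SE 0.08, limma adjusted p = 0.0065). Ctsd, cathepsin D, is the main aspartic protease (chromosome 7, 141929648-141941775), and its start region is the first stretch shown. It had 259, 323 and 237 FPKM in pIONT libraries, against 205, 201 and 198 FPKM in sham libraries. Here pIONT 2 stood well above the other pIONT libraries, and the log2 fold change of 0.43 had the larger SE of 0.11 (limma adjusted p = 0.030). Ctsl, cathepsin L (chromosome 13, 64507151-64518704), showed the smallest increase of the 4. It had 91.9, 93.5 and 95.3 FPKM in pIONT libraries, against 86.95, 83.3 and 80.1 FPKM in sham libraries, which is 0.17 on the log2 scale (SE 0.04, limma adjusted p = 0.036). Ctsa, a carboxypeptidase that also protects other hydrolases, and the tripeptidyl peptidase Tpp1 did not pass, at 0.08 and -0.07. In GENCODE vM21, 34.4% of the exon length of Ctsd is shared with a gene on the same strand, Gm49369, and 26.8% of that of Ctsl and 12.8% of that of Ctsb lie opposite other genes. Among the other members, the largest opposite-strand shares were 43.9% for Becn1, 28.3% for Gabarapl1, 17.4% for Ctsa, 17.3% for Sqstm1 and 12.8% for Hexa. The sources used here do not say how strand was handled, so reads of these overlaps cannot be assigned to a gene.

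Of the 6 glycosidases, 5 had a positive fold change, 1 rose and 1 fell. Gaa, acid alpha-glucosidase, which digests glycogen in lysosomes, fell, and Galc, the galactosylceramidase that digests myelin galactolipid, rose. Gaa (chromosome 11, 119158713-119176280) had 58.3, 47.6 and 50.8 FPKM in pIONT libraries, against 60.7, 66.7 and 68.8 FPKM in sham libraries. All 3 pIONT libraries lay below the lowest sham library, and the log2 fold change was -0.32 (SE 0.08, limma adjusted p = 0.032). Galc (chromosome 12, 98168553-98225718) had 2.68, 3.11 and 2.63 FPKM in pIONT libraries, against 2.23, 2.20 and 2.23 FPKM in sham libraries, which is 0.28 on the log2 scale (SE 0.07, limma adjusted p = 0.035). The sham libraries of Galc were nearly equal, and its level was the lowest of the 39 genes. Of 15 alternative settings, Gaa passed in 7 and Galc in 7. Gusb, Man2b1 and Hexa, which cleave glucuronides, mannosides and GM2 ganglioside, lay above sham in every pIONT library with log2 fold changes of 0.49, 0.43 and 0.37. Their SEs of 0.16, 0.14 and 0.12 were larger, and none passed (limma adjusted p = 0.064, 0.073 and 0.061). Glb1, the beta-galactosidase, did not pass, at 0.07.

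None of the 7 lipid enzymes and carriers passed by limma, with 2 at an unadjusted p below 0.05. Psap, the precursor of the saposins that help lipid hydrolases, was the most abundant of the 39 genes in this table. It had 659.7, 687 and 620.5 FPKM in pIONT libraries, against 592, 602 and 601 FPKM in sham libraries, without overlap, and the log2 fold change was 0.13 (SE 0.05, limma adjusted p = 0.12). Grn, progranulin, a lysosomal glycoprotein precursor, came closest to the threshold of all members that did not pass. Its values were 31.2, 43.2 and 26.9 FPKM in pIONT libraries, against 24.97, 21.4 and 20.2 FPKM in sham libraries, which is 0.57 on the log2 scale (SE 0.17, limma adjusted p = 0.0503). The library pIONT 2 was far the highest. The lipase Lipa, the ceramidase Asah1, the sphingomyelinase Smpd1, the thioesterase Ppt1 and the cholesterol carrier Npc2 had log2 fold changes between -0.10 and 0.18.

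Of the 3 proton pump genes, Atp6ap1, an accessory subunit, rose. It lies on the X chromosome at 73340703-73348327 and had 123, 132 and 123 FPKM in pIONT libraries, against 102, 104 and 101 FPKM in sham libraries. The groups were well apart, and the log2 fold change was 0.30 (SE 0.04, limma adjusted p = 0.0051). Atp6v0d1, a subunit of the membrane sector, had 129, 131 and 127 FPKM in pIONT libraries, against 125, 134 and 128 FPKM in sham libraries. Its groups overlapped throughout. The catalytic subunit Atp6v1a had a log2 fold change of -0.06 and did not pass. Both Atp6v0d1 and Atp6v1a carry TCACGTGA in the windows shown, and Atp6ap1 does not. Tfeb itself, a gene of low level, had 2.93, 3.02 and 2.83 FPKM in pIONT libraries, against 3.04, 2.55 and 3.44 FPKM in sham libraries. Its pIONT libraries all lay within the range of the sham libraries (-0.03, SE 0.10, limma adjusted p = 0.86).

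None of the 5 genes that start autophagy or grow its membrane passed, with 0 at an unadjusted p below 0.05 by limma, and all 5 fold changes were negative, from -0.11 to -0.01. They are the kinase Ulk1, the lipid kinase partner Becn1, the conjugation proteins Atg5 and Atg7, and the lipid-binding protein Wipi1. Atg5, the most abundant of them, had 17.4, 17.4 and 18.98 FPKM in pIONT libraries, against 20.2, 18.4 and 19.7 FPKM in sham libraries (-0.11, SE 0.05, limma adjusted p = 0.18). Of the 5 coat and cargo genes, Map1lc3b and Gabarap rose. Map1lc3b, which codes for the LC3B coat protein (chromosome 8, 122317100-122325499), had the smallest p of the 39. It had 84.2, 84.3 and 86.2 FPKM in pIONT libraries, against 67.4, 68.8 and 67.9 FPKM in sham libraries. Both groups were tight, and the log2 fold change was 0.32 (SE 0.04, limma adjusted p = 0.0019). Gabarap (chromosome 11, 69881969-69885777), a coat protein of the related family, had 116, 128 and 116 FPKM in pIONT libraries, against 104, 98.8 and 98.9 FPKM in sham libraries (0.25, SE 0.05, limma adjusted p = 0.017). Gabarapl1, the most abundant coat gene, went the other way without passing, with 445, 419.8 and 448 FPKM in pIONT libraries, against 467, 479.5 and 480.3 FPKM in sham libraries (-0.12, SE 0.05, limma adjusted p = 0.11). Map1lc3a, the LC3A gene, and Sqstm1, the p62 cargo receptor, were above sham in every pIONT library without passing (0.17 and 0.06, limma adjusted p = 0.059 and 0.31).

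**Figure D2:**
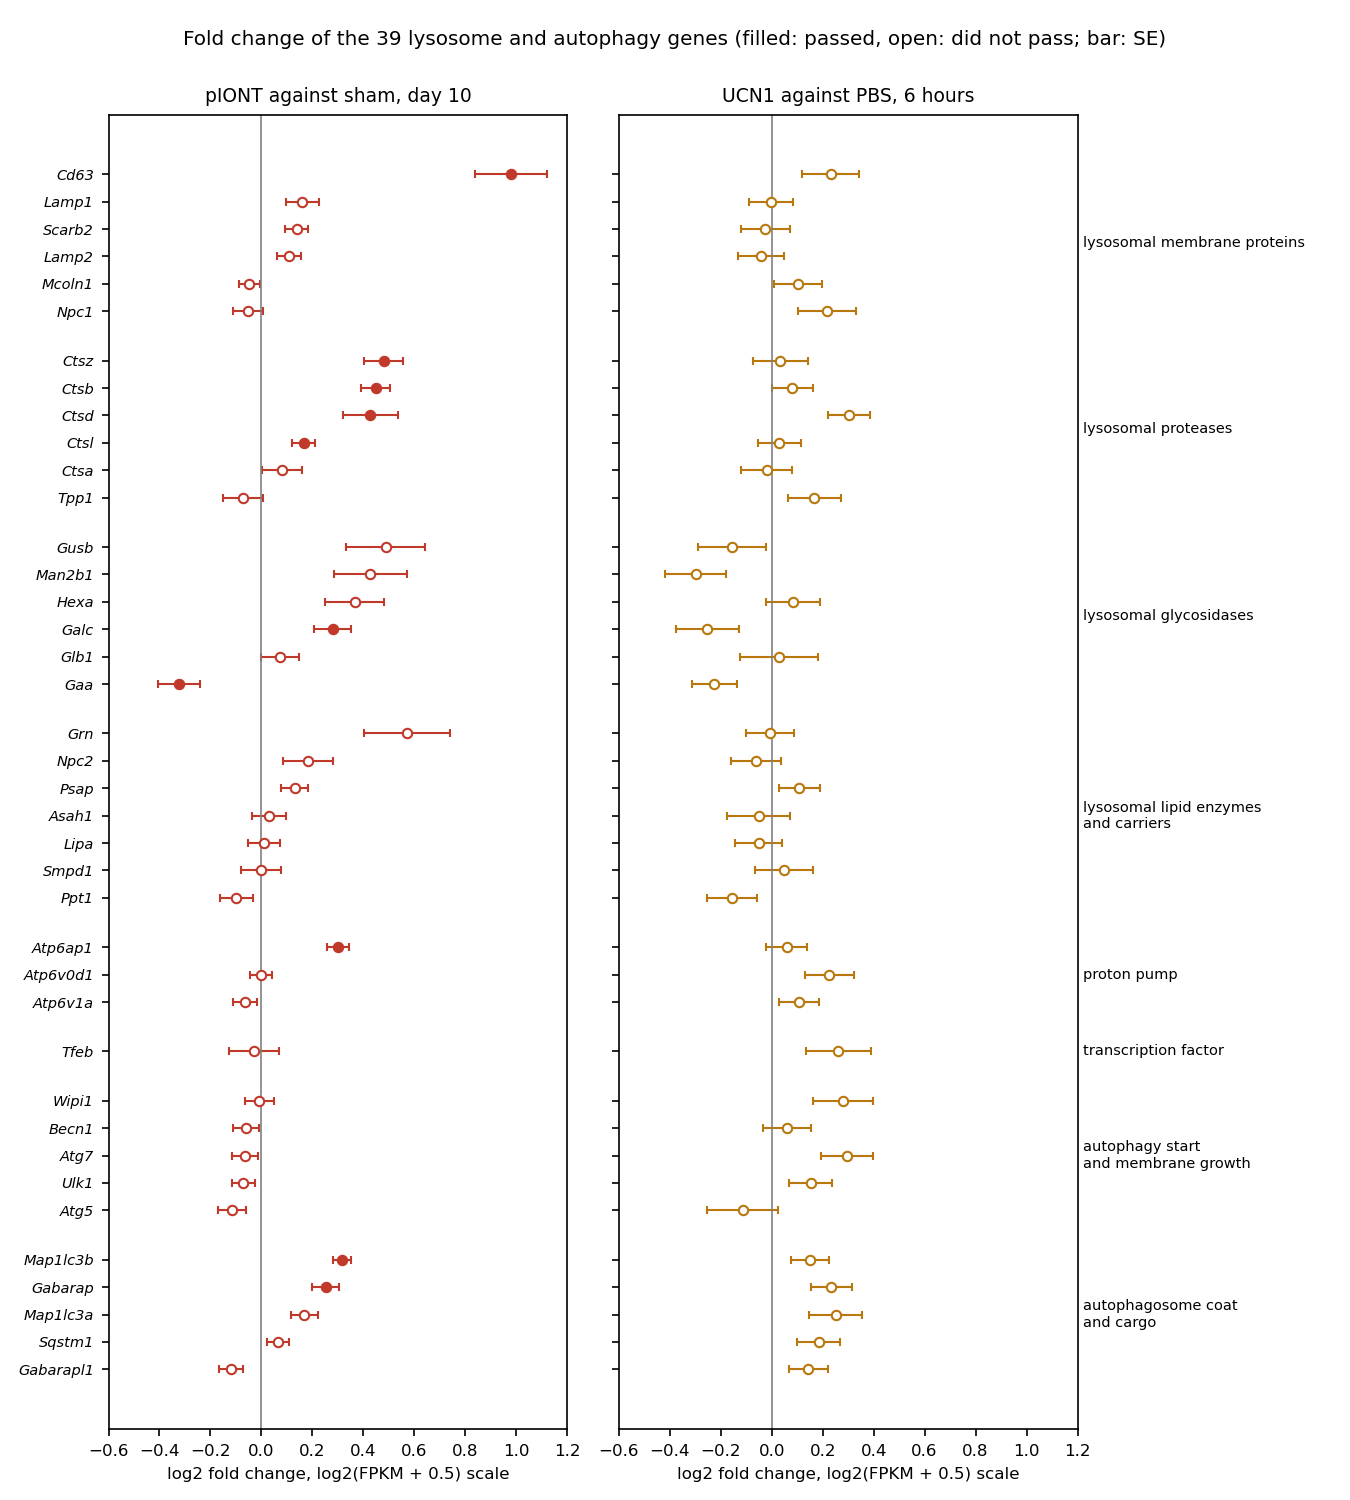
Log2 fold change on the log2(FPKM + 0.5) scale (horizontal axes) of each of the 39 genes, grouped by role, for pIONT against sham (left) and UCN1 against PBS (right); filled points passed the limma test, open points did not, and bars are ± SE. After pIONT, Cd63 lies farthest right at 0.98 and Gaa farthest left at -0.32, and no point is filled after UCN1.

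Macrophage markers were higher in the same libraries as several of these genes. Of 15 macrophage markers 9 rose and 0 fell, and their summed level was 407, 829 and 367 FPKM in pIONT libraries 1 to 3, against 326, 180 and 215 FPKM in sham libraries 1 to 3, with none of the 15 at 0 in any library. The most abundant were Lyz2 and C1qa, a lysozyme and a complement subunit. Of 5 lysosomal genes enriched in macrophages, Ctss (1.97) and Laptm5 (0.98) rose, and the list summed to 74.1, 171 and 65.9 FPKM in pIONT libraries, against 44.4, 20.02 and 27.2 FPKM in sham libraries. The library pIONT 2 was the highest of the 6 for 17 of the 39 genes (43.6%), against 26.1% of all genes tested. The ratio of pIONT 2 to the mean of the other pIONT libraries had a median of 1.04 over the 39 genes. Gusb was the highest, followed by 1.49 for Grn, 1.44 for Cd63, 1.43 for Man2b1, 1.32 for Hexa and 1.30 for Ctsd. It was 1.10 for Ctsb and 0.99 for Map1lc3b. Among the 15 macrophage markers it ranged from 0.885 for Mrc1 to 2.93 for Lyz2, with 1.27 for Csf1r and 1.69 for C1qa. Cd14, Adgre1 and Ptprc lay between Mrc1 and Csf1r. Of the 5 lysosomal genes enriched in macrophages, Lpl had the lowest ratio, Ctss had 2.51 and Gpnmb the highest, 6.35. High ratios were not limited to macrophage lists. The fibroblast markers ranged from 0.977 for Dcn to 2.53 for Col3a1, and the injured sensory neuron markers from 1.19 for Sprr1a to 1.77 for Gal. Without pIONT 2, 7 genes still rose, namely Atp6ap1, Cd63, Ctsb, Ctsd, Ctsz, Gabarap and Map1lc3b, and 0 fell. Without both pIONT 2 and sham 1, those 7 and Grn rose and 0 fell. The part of macrophage RNA in these results was not tested.

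**Figure D3:**
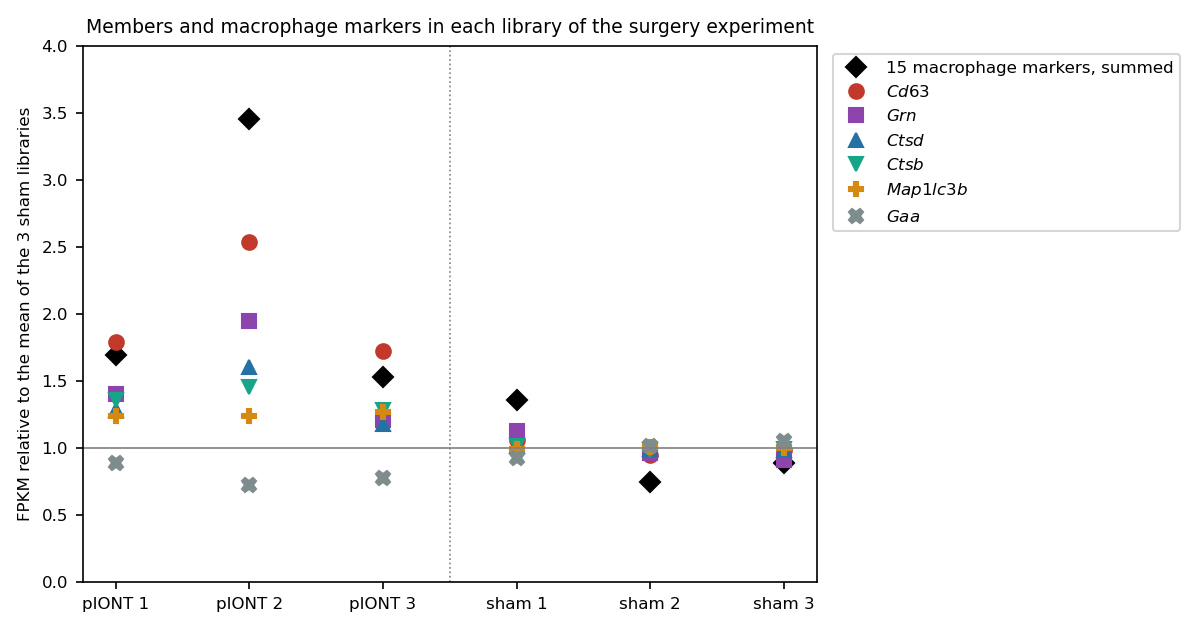
FPKM relative to the mean of the 3 sham libraries (vertical axis) in each library (horizontal axis) for 5 lysosomal members, Map1lc3b and the sum of 15 macrophage markers. The marker sum, Cd63, Grn, Ctsd and Ctsb are highest in pIONT 2, whereas Map1lc3b is nearly level across the pIONT libraries, at 84.2, 84.3 and 86.2 FPKM.

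Marker RNA of other cell types was measured in the same libraries. Of 6 markers of injured sensory neurons, 6 rose. They summed to 2096, 2841 and 1769 FPKM in pIONT libraries 1 to 3, against 125 to 128 FPKM in sham libraries. Of 10 general markers of sensory neurons 4 rose and 5 fell (7143 to 7287 FPKM in pIONT libraries, against 6008 to 6561 FPKM in sham libraries). Of 8 markers of myelinating Schwann cells 0 rose and 5 fell (3757 to 4028 FPKM in pIONT libraries, against 4533 to 5022 FPKM in sham libraries). Of 8 satellite glia markers 2 rose and 2 fell, and of 6 endothelial markers 0 rose and 2 fell. The satellite glia markers summed to 3380, 3890 and 3237.5 FPKM in pIONT libraries 1 to 3, against 2888 to 3092 FPKM in sham libraries. The fibroblast markers summed to 221, 345 and 230 FPKM in pIONT libraries 1 to 3, against 238, 182 and 192 FPKM in sham libraries 1 to 3. None of the 6 fibroblast, 6 neutrophil, 4 tested pituitary, 2 tested oligodendrocyte and 5 red blood cell markers passed by limma, and of these 1 fibroblast marker had an unadjusted p below 0.05. The part of these cell types in the results was not tested.

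Of 127 other tested genes of the same pathways, 20 rose (15.7%, against 10.5% of all genes) and 14 fell (11%, against 12.3% of all genes) in pIONT ganglia, with a median log2 fold change of 0.00. Among 26 other hydrolases and cofactors, 4 rose (15.4%) and 3 fell (11.5%). The phospholipase Pla2g15 had the smallest p, with 11.2, 13.4 and 12.5 FPKM in pIONT libraries, against 9.57, 7.46 and 8.40 FPKM in sham libraries (0.52, SE 0.10, limma adjusted p = 0.012). The sulfatase Ids rose by 0.23 and the sialidase Neu1 fell by 0.25 (limma adjusted p = 0.016 and 0.023). Among 17 other membrane proteins and carriers, 2 rose and 2 fell (11.8% each, against the same 10.5% and 12.3%). They included Cd164, a sialomucin (0.17, limma adjusted p = 0.024), and Laptm4b, a membrane protein of late endosomes and lysosomes (-0.43, limma adjusted p = 0.012).

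Of the 16 other proton pump subunits 6 rose (37.5%, against 10.5% of all genes) and 0 fell. Of the 16, 10 had a positive fold change. In 8 (50%) every pIONT library lay above every sham library, against 18.7% of all genes. In 4 (25%, against 24.7% of all genes) every pIONT library lay below, without passing. These were Atp6v0e2, Atp6v1b2, Atp6v1c1 and Atp6v1e1. Atp6v0a2, a membrane sector subunit, had 16.6, 15.8 and 15.1 FPKM in pIONT libraries, against 11.8, 12.2 and 12.4 FPKM in sham libraries (0.37, SE 0.05, limma adjusted p = 0.0036). Atp6v0b, a proteolipid subunit, had 105, 117 and 105 FPKM in pIONT libraries, against 80.4, 84.4 and 78.2 FPKM in sham libraries (0.42, SE 0.06, limma adjusted p = 0.0038). Atp6ap2, the accessory partner of Atp6ap1, rose by 0.25 (limma adjusted p = 0.0076).

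Among 24 other genes of autophagy start and conjugation, 2 rose and 6 fell (25%, against 12.3% of all genes). Those with the smallest p were Uvrag (-0.25, limma adjusted p = 0.011), a partner of the lipid kinase that starts autophagy, Atg2a (0.25, adjusted p = 0.011), a lipid transfer protein, and Pik3c3 (-0.27, adjusted p = 0.013), that kinase itself. Pik3c3 had 15.1, 13.8 and 14.8 FPKM in pIONT libraries, against 17.2, 17.2 and 18.5 FPKM in sham libraries, with no overlap. Among 19 other coat, cargo and fusion genes, 3 rose (15.8%) and 2 fell (10.5%). The 3 were Plekhm1 (0.34, limma adjusted p = 0.0073) and Snap29 (0.26, adjusted p = 0.0097), which act in the fusion of autophagosomes with lysosomes, and the adaptor Tollip (0.21, adjusted p = 0.012).

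**Figure D4:**
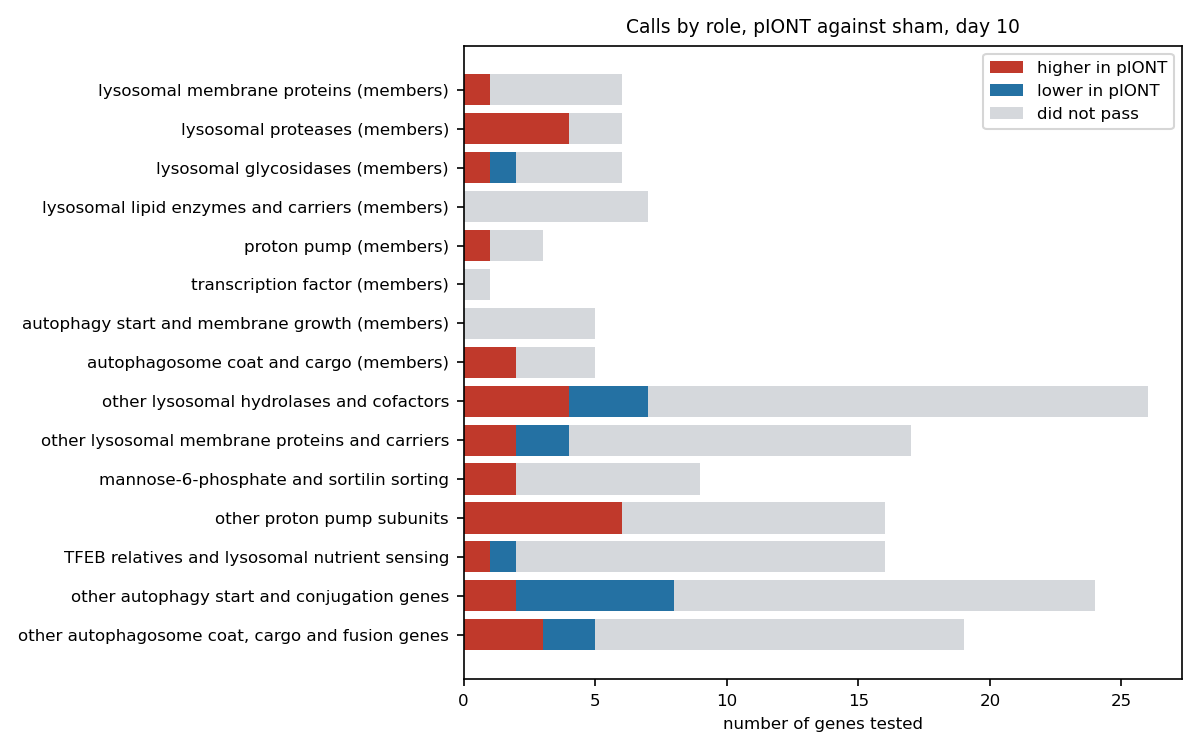
Number of genes tested (horizontal axis) in each role group of the 39 members and in each list of other pathway genes, split into those higher in pIONT, those lower in pIONT and those that did not pass. Of the proteases 4 of 6 are higher, of the other pump subunits 6 of 16 are higher and 0 lower, and of the other autophagy start genes 6 of 24 are lower.

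After the injection, 0 of the 39 genes passed in UCN1 ganglia 6 hours later, against 0.601% of the 16139 genes tested by limma, with 8 of the 39 at an unadjusted p below 0.05 and 2113 of all genes. The median log2 fold change of the 39 was 0.06, against -0.01 over all genes, and 25 were positive. In 19 genes (48.7%) both UCN1 libraries lay above both PBS libraries, against 21.8% of all genes, and in 5 (12.8%) below, against 23.7%. Of the 127 other pathway genes tested, 0 passed and 12 had an unadjusted p below 0.05. Of 15 macrophage markers 0 passed and 2 had an unadjusted p below 0.05 (134 and 144 FPKM summed in UCN1 libraries, against 151 and 131 FPKM in PBS libraries). The pituitary markers summed to 9.14 and 9.61 FPKM in UCN1 libraries, against 122 and 124 FPKM in PBS libraries, and 3 of the 5 tested fell. Of 4 tested markers of injured sensory neurons 1, Atf3, rose, and the list summed to 165 and 167 FPKM in UCN1 libraries, against 129 and 122 FPKM in PBS libraries. None of 8 satellite glia markers passed by limma, with 3 at an unadjusted p below 0.05 (5100 and 5264 FPKM summed in UCN1 libraries, against 4807 and 4540.2 FPKM in PBS libraries). None of 6 endothelial markers passed by limma, with 1 at an unadjusted p below 0.05 (119 and 119.5 FPKM in UCN1 libraries, against 99.99 and 84.1 FPKM in PBS libraries). The part of these marker differences in the members' values was not tested.

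The coat and cargo genes lay above PBS in both UCN1 libraries in all 5 cases, with log2 fold changes of 0.14 to 0.25, and none passed. Of all genes tested, 21.8% lay above in this way, and 45.5% did not overlap in either direction. Gabarapl1, the most abundant, had 735 and 763 FPKM in UCN1 libraries, against 685 and 671 FPKM in PBS libraries. Sqstm1 had 565 and 621 FPKM in UCN1 libraries, against 507 and 537 FPKM in PBS libraries. The smallest adjusted p among the 5 was that of Gabarap, 0.28 by limma. Ctsd had the smallest p of the 39, with 95.0 and 96.3 FPKM in UCN1 libraries, against 78.0 and 76.7 FPKM in PBS libraries. Its log2 fold change was 0.30 (SE 0.08), with a limma p of 0.0058 and an adjusted p of 0.19.

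**Figure D5:**
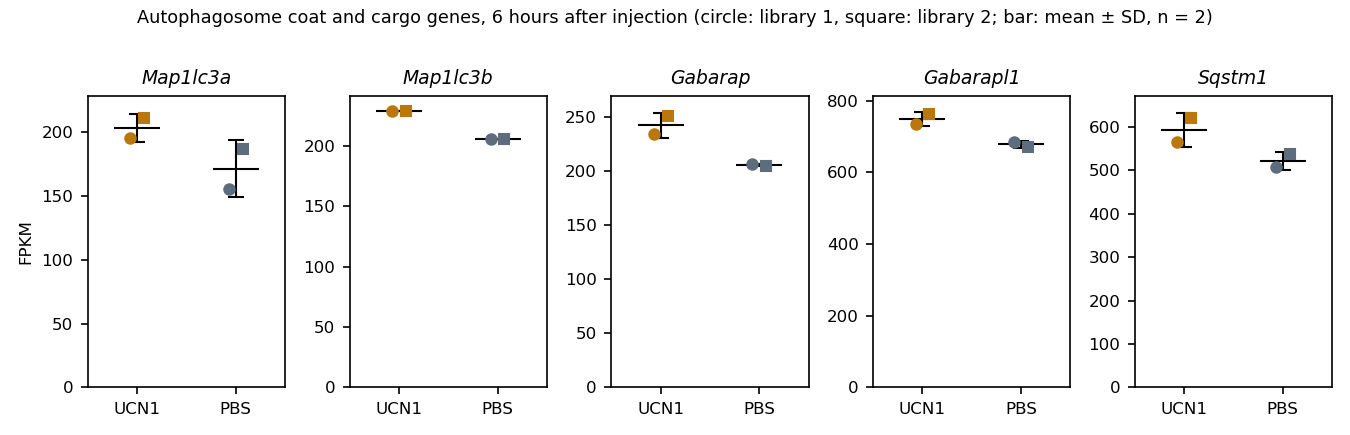
FPKM (vertical axes, from 0) of the 5 coat and cargo genes in UCN1 (left) and PBS (right) libraries 6 hours after injection; symbols mark library numbers and bars the mean ± SD of 2 libraries. Both UCN1 libraries are above both PBS libraries in every panel, and none passed the test.

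Of the members that changed after pIONT, only Galc had a fold change of the other sign after UCN1, and none passed there. With a library left out, Ctsl ranged from -0.0294 to 0.0903 and Ctsz from -0.0858 to 0.153 after UCN1, so their sign there was not stable. The others kept their sign after UCN1 in every alternative setting, Atp6ap1 with values down to 0.0. Gaa was negative in both experiments: it had 165 and 183 FPKM in UCN1 libraries, against 196 and 211 FPKM in PBS libraries (-0.22, SE 0.09, limma adjusted p = 0.34). Galc was positive after pIONT and negative after UCN1, with 12.6 and 13.2 FPKM in UCN1 libraries, against 16.5 and 14.5 FPKM in PBS libraries (-0.25, SE 0.12, limma adjusted p = 0.43). Cd63 had 66.9 and 66.0 FPKM in UCN1 libraries, against 62.6 and 51.05 FPKM in PBS libraries (0.23, SE 0.11, limma adjusted p = 0.43). Ctsb, the most abundant protease, had 631 and 675 FPKM in UCN1 libraries, against 615 and 619 FPKM in PBS libraries (0.08, SE 0.08, limma adjusted p = 0.71). Lamp1 had 302.5 and 323 FPKM in UCN1 libraries, against 329 and 298 FPKM in PBS libraries, with overlap. Tfeb had 19.5 and 18.8 FPKM in UCN1 libraries, against 14.4 and 17.5 FPKM in PBS libraries (0.26, SE 0.13, limma adjusted p = 0.43). The difference between the experiments was not tested, since their tables were made separately.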

How the data were processed

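Bulk RNA sequencing of mouse trigeminal ganglion was deposited as 1 table of FPKM values per experiment; the tools and build listed for the deposited values are STAR, HTSeq and DESeq2 with GRCm39, of unstated role and version (per the submitters' processing notes). Start and end matched GENCODE vM21 (GRCm38) for 1.99% of shared identifiers in the surgery table and 99.42% in the injection table. Symbols came from GENCODE by identifier. In each table, genes with a mean of at least 0.5 FPKM entered a two-sided test of log2(FPKM + 0.5) in limma 3.58.1 (R 4.3.3), with its trend option and without covariates; p-values were adjusted by Benjamini-Hochberg over all genes tested, with a threshold of 0.05. The pseudocount understates changes of low genes. The fit was tested on data simulated with independent normal errors. The simulation held no differences between libraries like those of pIONT 2 and sham 1, so its outcome says nothing about them. Depth was recovered from low values. Within 0.1 reads and up to 20 reads, 92.0% to 92.5% of them were whole reads in the surgery experiment. In the injection experiment 98.8% to 99.0% were. Reads are given only as depth and as the fewest behind a member, worked out from FPKM, gene length and this depth. The members and lists were chosen with earlier results of these data known. Values in every library were given for members that passed and otherwise for the most abundant of each role; other values shown were chosen after they were seen. From each other list, up to 3 genes that passed were taken by smallest p. A value that this rule took is not reported here. Alternatives changed the pseudocount, filter, scaling, trend, replicate block and libraries.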

Additional observations from a re-analysis of the deposited data

How the results depend on the processing

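All 10 members that passed after pIONT kept their direction in all 15 alternatives, and 5 of them (Atp6ap1, Cd63, Ctsb, Ctsz and Map1lc3b) passed in all 15; Gabarap passed in 12, Ctsd in 10, Galc in 7, Gaa in 7 (with median-of-ratios scaling only just below the threshold) and Ctsl in 5. The groups of these 10 did not overlap, so only TPM or median-of-ratios scaling could have turned their direction. The other alternatives could not, and their kept direction is no support. Members that rose numbered 9, and 5 to 12 with a library left out, the 5 without sham 2 or sham 3; those that fell numbered 1, and 0 to 1 with a library left out. The count that fell was 0 with no filter on low values, 0 with no mean-variance trend and 0 without pIONT 2 and sham 1, an alternative chosen after seeing the data. Genes that rose numbered 1537, and 922 to 1389 with a library left out; genes that fell numbered 1807, and 767 to 1580. With TPM 1298 rose and 2239 fell, and with median-of-ratios scaling 1716 rose and 1435 fell. With no filter on low values 1438 rose and 1322 fell. More genes rose than fell also without sham 1 (1203 and 1042), sham 2 (1087 and 989) or sham 3 (922 and 767). Which direction had more calls thus depended on the scaling, the filter and the libraries used. Without pIONT 2 and sham 1, 898 genes rose and 758 fell. With the replicate number as a block, 1053 genes rose and 1032 fell after pIONT, 6 members rose and 0 fell. Deviations from the group means of same-numbered libraries had correlations of -0.055, -0.202 and 0.068 after pIONT, and of 0.039 after UCN1. With 2 libraries a group, the correlation is the same for both numbers by construction. Deviations within a group of 2 or 3 are tied to each other, so these values do not settle whether the numbers pair the libraries. After UCN1, 0 members passed in any of 12 alternatives. Genes that rose or fell after UCN1 (49 and 48) numbered 0 and 2 with no filter, 84 and 71 at a mean of 2 FPKM, 1 and 4 with no trend, 124 and 136 with the block, and 0 to 19 and 4 to 19 with a library left out; a left-out library leaves 1 in its group, assumed to vary like the other group. Of the 39 members, 8 after pIONT and 12 after UCN1 changed direction in some alternative, none of which passed; with the settings of the report their log2 fold changes were at most 0.0806 and 0.114 in size. After pIONT these were, with a library left out, -0.0198 to 0.0811 for Asah1, -0.0231 to 0.0245 for Atp6v0d1, -0.0026 to 0.141 for Ctsa, -0.0484 to 0.0446 for Lipa, -0.0727 to 0.0792 for Smpd1, -0.1261 to 0.0577 for Tfeb, -0.1419 to 0.0105 for Tpp1 and -0.0382 to 0.027 for Wipi1. TPM gave -0.0275 for Lipa and -0.0077 for Asah1. Median-of-ratios scaling gave 0.0187 for Atp6v0d1, 0.0184 for Smpd1 and 0.0098 for Wipi1. Without pIONT 2 and sham 1, Lipa had -0.0238 and Wipi1 0.0207. After UCN1 they were, with a library left out, -0.2284 to 0.1249 for Asah1, -0.309 to 0.0808 for Atg5, -0.136 to 0.0961 for Ctsa, -0.0294 to 0.0903 for Ctsl, -0.0858 to 0.153 for Ctsz, -0.11 to 0.1685 for Glb1, -0.0796 to 0.0652 for Grn, -0.0725 to 0.0663 for Lamp1, -0.1053 to 0.0213 for Lamp2, -0.1386 to 0.0153 for Npc2, -0.1069 to 0.0567 for Scarb2 and -0.0913 to 0.1881 for Smpd1. Median-of-ratios scaling gave 0.0095 for Lamp1 and 0.0053 for Grn. The cause of these changes was not tested. With 3 or 2 libraries a group, small changes of single members cannot be told from the spread between libraries.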

Other observations

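The sorting machinery that brings hydrolases to the lysosome was not described above. Of 9 genes of mannose-6-phosphate and sortilin sorting, 2 rose and 0 fell in pIONT ganglia (10.5% and 12.3% of all genes tested). The small mannose-6-phosphate receptor M6pr had 38.6, 39.4 and 36.0 FPKM in pIONT libraries, against 33.3, 30.7 and 31.4 FPKM in sham libraries (log2 fold change 0.25, SE 0.05, limma adjusted p = 0.015). The adaptor Gga2 had 9.91, 9.71 and 9.47 FPKM in pIONT libraries, against 8.06, 8.57 and 8.08 FPKM in sham libraries (0.22, SE 0.05, limma adjusted p = 0.015). Neither gene had overlapping groups.

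Of 16 tested relatives of TFEB and genes of nutrient sensing at the lysosome, 1 rose and 1 fell (6.25% each, against 10.5% and 12.3% of all genes). Both are Rag GTPases, which bring mTOR to the lysosome. Rragb had 14.6, 13.0 and 15.1 FPKM in pIONT libraries, against 18.6, 18.9 and 18.6 FPKM in sham libraries (-0.38, SE 0.06, limma adjusted p = 0.0062). Rragd had 9.22, 9.17 and 9.43 FPKM in pIONT libraries, against 8.44, 8.22 and 7.81 FPKM in sham libraries (0.18, SE 0.05, limma adjusted p = 0.035).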
